A study of Mus musculus with 6 samples.

Results

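The genes described here are 10 genes of cellular iron handling, taken by name for their roles, out of 25690 gene symbols measured by RNA-seq. They comprise 3 genes of iron uptake (Tfrc, Slc11a2 and Steap3), 2 of storage (Fth1 and Ftl1), 1 of ferritin turnover (Ncoa4), 2 of iron sensing (Ireb2 and Aco1), 1 of mitochondrial iron import (Slc25a37) and 1 of heme breakdown (Hmox1). Ncr1cre Myc fl/fl mice were set against Ncr1cre Myc wt/wt controls, each genotype with 3 libraries that carry the replicate numbers 1, 2 and 4. Both genotypes carry Ncr1cre, in which Cre is expressed from the Ncr1 locus of NK cells and innate lymphoid cells, and they differ in whether the Myc alleles are floxed. The mice were untreated, on a C57BL/6 background, and matched for sex and age. The cells were CD27 single-positive (CD27SP) NK cells of the BM, sorted as NK1.1+ CD27+ CD11b- without T cells and B cells. Ncr1 is switched on only shortly before or at this immature stage, so the deletion is recent in these cells. The sources do not say whether a library came from 1 mouse or from pooled mice, so the p-values measure the spread between these libraries.

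The libraries held between 54550907 and 64962491 estimated counts, apart from the wt/wt library with replicate number 1, which held 8101219. Myc, the targeted gene, was at 200.5, 183.4 and 164.3 CPM (counts per Mio) in the wt/wt libraries and at 61.5, 64.6 and 76.5 in the fl/fl libraries, which edgeR fitted as a log2 fold change of -1.44 ± 0.155 (SE, adjusted p = 0.00189). Every library was rich in NK cell transcripts, with a summed TPM of the 10 NK cell markers of 16700 to 18200 in wt/wt and 19800 to 20800 in fl/fl, and Nkg7 as the most abundant. By the rule given below, edgeR and limma-trend called 0 of the 10, and DESeq2 called Gzma lower. Mean Nkg7 was 7752 TPM in wt/wt and 9875 in fl/fl. Gzma went the other way, at 2874 and 1963, with every fl/fl library below all wt/wt libraries. Il2rb was above them in every fl/fl library (1721 and 2546). Transcripts listed as markers of other cells were also present, and all of these lists but that of T cells had a higher sum in every fl/fl library than in any wt/wt library. The 12 erythroid markers, led by Hba-a2, summed to 144 to 905 TPM in wt/wt and 1830 to 3930 in fl/fl, with 4 of 12 called higher by edgeR's rule, given below, which called 1.28% of all genes higher, and 10 of 12 by DESeq2. The 10 macrophage markers, led by Csf1r, summed to 1.99 to 3.23 and 7.96 to 14.2, with 1 of 7 tested called higher (2 by DESeq2) and Marco at 0 in every library. The corresponding ranges were 896 to 1060 and 1340 to 1650 for 8 monocyte markers (Ccr2 the most abundant, 3 called higher, 4 by DESeq2), 68.5 to 145 and 491 to 832 for 9 neutrophil markers (Mpo, 4 called, 7 by DESeq2), and 13.7 to 19.1 and 159 to 453 for 8 basophil and mast cell markers (Prss34, 8 called, also by DESeq2). B cell markers (Cd79b the most abundant) summed to 4.5 to 9.75 and 15.3 to 18.7 TPM, and T cell markers (Cd3g) to 328 to 682 and 417 to 534, and edgeR called 0 in either list, as did DESeq2 and limma-trend, with 3 B cell markers and 2 T cell markers higher and 1 T cell marker lower before adjustment, at p below 0.05. The monocyte sum was mostly Ccr2 (mean 586.3 TPM in wt/wt and 725.9 in fl/fl) and Ly6c2 (364.4 and 678.7), with Lyz2 at 5.70 and 24.5 and Cd14 at 0.099 and 0.569. The T cell sum was mostly Cd3g, Cd3d, Cd3e and Trac, with Cd4 at 0.513 and 0.236 and Cd8a at 0.553 and 0.706. Which cells these transcripts came from was not tested. In such bulk libraries, fewer cells of a type and less RNA per cell cannot be told apart.

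Cells take up iron as transferrin bound to its receptor, reduce it and carry it out of the endosome, and then use it for heme and iron-sulfur clusters or store it inside ferritin shells built from heavy and light subunits. The iron regulatory proteins, encoded by Aco1 and Ireb2, bind a short RNA hairpin, the iron-responsive element (IRE), when iron is scarce. Bound in a 5' UTR they block translation, as in ferritin mRNA, and bound in a 3' UTR they protect the mRNA from decay, as in Tfrc mRNA. Ferritin is therefore set largely at translation, which an mRNA level does not report. Dividing lymphocytes depend on transferrin receptor for iron, and in other cell types MYC is known to activate TFRC and IREB2 and to repress FTH1.

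The hairpin letters of the quantified transcripts are shown because they set apart genes with a match in a 5' UTR, genes with one in a 3' UTR and genes without a match on this definition. A match was taken as an unpaired C, a stem of 5 bases with at least 4 pairs, the loop CAGTGN and, below the C, a lower stem of 5 bases with at least 3 pairs. Each line gives 30 bases of the transcript, 5' to 3', as DNA letters from GENCODE M21 (GRCm38), with the 6 bases of the loop in capitals.
Fth1-201, 5' UTR, chr19:9982732-9982761, plus strand: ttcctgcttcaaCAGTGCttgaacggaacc
Ftl1-201 and Ftl1-202, 5' UTR, chr7:45459778-45459807, minus strand: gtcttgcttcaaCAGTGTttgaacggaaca
Tfrc-201, 3' UTR, chr16:32631219-32631248, plus strand: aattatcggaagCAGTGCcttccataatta
Tfrc-201, 3' UTR, chr16:32631598-32631627, plus strand: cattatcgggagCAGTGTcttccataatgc
Tfrc-201, 3' UTR, chr16:32631663-32631692, plus strand: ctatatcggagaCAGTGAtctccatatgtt
Tfrc-201, 3' UTR, chr16:32631710-32631739, plus strand: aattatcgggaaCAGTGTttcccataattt
Both ferritin hairpins had 5 of 5 pairs in the upper stem and 4 of 5 in the lower, and all 4 Tfrc hairpins had 5 of 5 in both. The Tfrc hairpins also lie in Tfrc-204, for which no coding sequence is annotated. The other 7 genes had no match in their quantified transcripts, Slc11a2 included, which says only that these letters, on this definition, were not there. Of the further iron genes described below, Alas2 and Slc40a1 had a match in a 5' UTR, and Bach1, Heph, Iba57, Keap1 and Lcn2 had one elsewhere. The same letters occurred in 1945 of 100153 quantified transcripts (1.942%), so a match alone is a description of the sequence and not a binding site.

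None of the 10 iron genes passed the threshold, which asked edgeR's quasi-likelihood test for an adjusted p below 0.01 and a log2 change of 0.5 or more in either direction, and all 10 had enough counts to be tested. Among all 15474 genes tested, 135 (0.872%) were lower and 198 (1.28%) higher in fl/fl by the same rule. Before adjustment, 1 lower gene (Steap3) and 1 higher gene (Fth1) of the 10 had a p below 0.05, against 22.5% of all genes in either direction. DESeq2 and limma-trend called 0 of the 10 as well, with the same 2 at an unadjusted p below 0.05. The median log2 fold change of the 10 genes was 0.108, with 7 above 0 and 3 below, beside a median of 0.0144 for all genes tested, with 7962 above 0 and 7512 below. The CPM values were higher in every fl/fl library than in any wt/wt library for 2 of the 10, Fth1 and Aco1, and for 16.2% of all genes. On TPM, which divides by each transcript's effective length, the groups separated in this direction for 5 of the 10 (Fth1, Ftl1, Ncoa4, Aco1 and Hmox1) and for 19.2% of all genes.

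**Figure D1:**
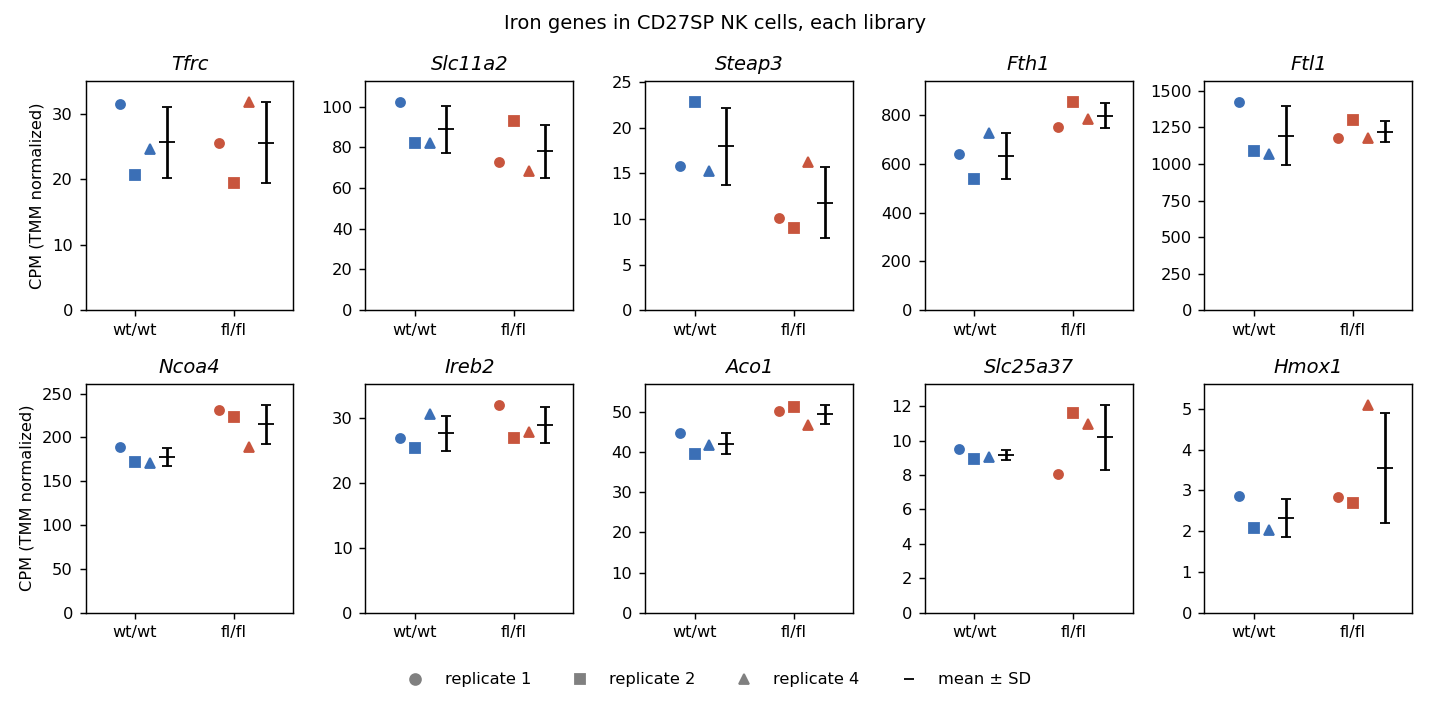
Each panel plots 1 iron gene, with TMM-normalized CPM on the vertical axis from 0 and the genotype on the horizontal axis. Points are the 3 libraries of each genotype, shaped by replicate number, and black bars are the mean ± SD. The fl/fl points lie above all wt/wt points only for Fth1 and Aco1, and the 3 Steap3 values of wt/wt overlap those of fl/fl through 1 fl/fl library at 16.2 CPM.

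The iron genes spanned 3 orders of abundance per length. Ferritin stood far above the rest, with Ftl1, the light subunit, at 2308 ± 188 TPM (SD, n = 3) in wt/wt and 2613 ± 144 in fl/fl, and Fth1, the heavy subunit, at 1266 ± 176 and 1713 ± 87.3. Ncoa4 followed at 84.5 ± 1.85 and 111.4 ± 13.5 TPM, Slc11a2 at 42.9 ± 1.21 and 44.2 ± 5.78, and Aco1 at 15.9 ± 0.315 and 20.6 ± 1.24. Steap3 (10.9 ± 3.88 and 7.85 ± 2.80 TPM), Tfrc (8.33 ± 2.24 and 8.21 ± 1.71) and Ireb2 (7.05 ± 0.983 and 7.40 ± 1.26) were neighbors whose library ranges overlapped in both genotypes. Slc25a37 was at 3.35 ± 0.305 and 4.26 ± 0.634 TPM and Hmox1, the lowest, at 2.23 ± 0.306 and 3.83 ± 1.31, with ranges that overlapped in fl/fl. The ranges of all other neighbors in this order did not overlap in either genotype. By this measure the transferrin receptor was a low transcript in CD27SP NK cells of both genotypes, below the divalent metal transporter Slc11a2.

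Of the uptake genes, Tfrc and Slc11a2 did not differ detectably and Steap3 was lower on average. Tfrc (ENSMUSG00000022797.16, chr16:32608920-32632794, plus strand, GRCm38) encodes transferrin receptor 1, which takes up iron-loaded transferrin. Its CPM values were 31.6, 20.7 and 24.7 in wt/wt and 25.5, 19.4 and 31.9 in fl/fl. The groups overlapped over most of their range, and the log2 fold change was -0.0049 ± 0.184 (SE), with an adjusted p of 0.992 in edgeR. Its 95% interval, from -0.42 to 0.41, covers a change of up to 1.33-fold up or to 0.749-fold down, so that smaller differences were not detectable with these libraries. The sign was not stable either, with log2 values from -0.22 to 0.18 when libraries were left out.

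Slc11a2 (ENSMUSG00000023030.16, chr15:100387898-100425072, minus strand) encodes the divalent metal transporter DMT1, which carries ferrous iron out of the endosome. Its values were 102.4, 82.2 and 82.3 CPM in wt/wt and 73.1, 92.8 and 68.2 in fl/fl. The shallow wt/wt library was the highest of the 6, and 1 fl/fl library lay above the other 2 wt/wt libraries. The log2 fold change was -0.19 ± 0.157 (95% interval -0.54 to 0.16, adjusted p = 0.532 in edgeR), and it was -0.049 without both libraries of replicate number 1 and -0.368 without those of replicate number 2.

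Steap3 (ENSMUSG00000026389.16, chr1:120190757-120272705, minus strand) encodes the endosomal ferrireductase that reduces transferrin iron before export from the endosome. It was at 15.9, 22.8 and 15.2 CPM in wt/wt and at 10.1, 9.02 and 16.2 in fl/fl. Both remaining fl/fl libraries lay below every wt/wt library, and the fl/fl library with replicate number 4 lay inside the wt/wt range. The fitted log2 change was -0.63 ± 0.271 (95% interval -1.24 to -0.026, unadjusted p = 0.0425, adjusted p = 0.203 in edgeR), the most negative of the 10 genes. It was -0.26 without replicate number 2 and -1.03 without replicate number 4 (adjusted p of 0.718 and 0.0532 in edgeR), so its size depended on single pairs of libraries.

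**Figure D2:**
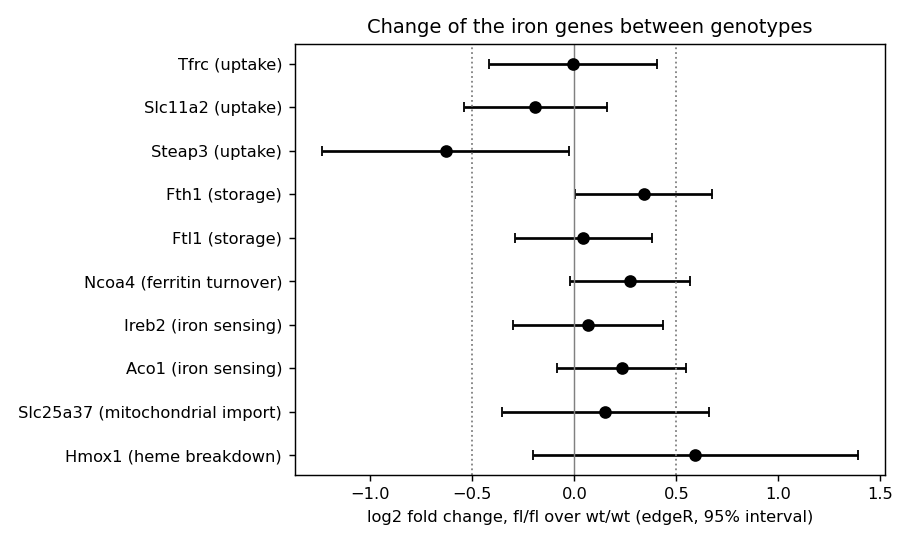
Points are the log2 fold changes of the 10 iron genes, fl/fl over wt/wt, from edgeR, and bars are 95% intervals; dotted lines mark 0.5 in either direction. The intervals of Steap3 (-1.24 to -0.026) and Fth1 (0.003 to 0.677) exclude 0 before adjustment, and those of the other 8 genes include it.

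Of the storage genes, the heavy ferritin subunit was higher on average in fl/fl and the light subunit was nearly level. Fth1 (ENSMUSG00000024661.7, chr19:9980598-9985098, plus strand) encodes the heavy subunit, which oxidizes ferrous iron as it enters the shell. It was at 640.5, 537.6 and 726.0 CPM in wt/wt and at 753.8, 855.8 and 786.4 in fl/fl. The fl/fl libraries were all above the wt/wt libraries, by a margin of under 30 CPM between the nearest pair. On the log2 scale Fth1 was higher by 0.34 ± 0.151 (95% interval 0.003 to 0.677), which is 1.27-fold, with unadjusted p = 0.0484 and adjusted p = 0.218 in edgeR. It was 0.185 without replicate number 2 and 0.44 without the wt/wt library of replicate number 4. The Fth1 value rests on a single quantified transcript, Fth1-201, which is 866 bases long in the authors' files and 929 in GENCODE M21.

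Ftl1 (ENSMUSG00000050708.16, chr7:45457944-45459884, minus strand) encodes the light subunit, which helps the iron core to form. It was at 1425, 1086 and 1069 CPM in wt/wt and at 1175, 1304 and 1181 in fl/fl. The highest value was that of the shallow wt/wt library, and the other 2 wt/wt libraries were below all fl/fl libraries. The log2 fold change was 0.044 ± 0.151 (95% interval -0.29 to 0.38, adjusted p = 0.914 in edgeR), and it was 0.203 without replicate number 1 and -0.0571 without replicate number 2. Ftl1 shares reads with near-identical sequences, so its level carries an uncertainty of assignment. Ftl1-ps1 (chr13:74399694-74407346) matches it at 99.56% over 910 bases and was listed with 68.6 to 80.1 CPM in wt/wt and 62.6 to 72.1 in fl/fl, and summing it with Ftl1 gave a log2 fold change of 0.034. Gm10252 (chr7:45459469-45460300, plus strand) overlaps Ftl1 on the opposite strand, and at 6.11 to 30.9 CPM in wt/wt and 16.7 to 19.9 in fl/fl its reads cannot be told apart from those of Ftl1 by strand.

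The ratio of heavy to light ferritin mRNA removes any scaling between libraries. Fth1 TPM divided by Ftl1 TPM was 0.474, 0.505 and 0.681 in wt/wt and 0.648, 0.651 and 0.668 in fl/fl. The fl/fl values lay close together, inside the wider span of wt/wt, where replicate number 4 was the highest of the 6. The mean log2 ratio was higher by 0.263 in fl/fl, with p = 0.4 in a two-sided exact permutation test over the 6 libraries, for which 0.1 is the smallest p possible, so this test could not reach p below 0.05 whatever the values.

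Ncoa4 (ENSMUSG00000056234.15, chr14:32159865-32179855, plus strand), the cargo receptor that delivers ferritin to lysosomes and so frees its iron, was at 189.4, 172.0 and 170.5 CPM in wt/wt and at 231.7, 223.8 and 189.3 in fl/fl. The groups met at their edges, where the highest wt/wt and the lowest fl/fl library were nearly equal. This was a log2 fold change of 0.27 ± 0.132 (95% interval -0.021 to 0.57), which is 1.21-fold, with unadjusted p = 0.0655 and adjusted p = 0.259 in edgeR. Fits with the libraries left out in turn or with other processing kept it between 0.222 and 0.372. On TPM the groups separated, at 84.1, 86.5 and 82.9 in wt/wt and 125.2, 110.6 and 98.3 in fl/fl.

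The genes of the iron sensors differed little. Ireb2 (ENSMUSG00000032293.8, chr9:54863789-54912530, plus strand), which encodes iron regulatory protein 2, was at 26.9, 25.3 and 30.6 CPM in wt/wt and at 32.04, 26.9 and 27.8 in fl/fl. These ranges overlapped almost fully, and the log2 fold change was 0.064 ± 0.164 (95% interval -0.30 to 0.43, adjusted p = 0.876 in edgeR). Aco1 (ENSMUSG00000028405.9, chr4:40143081-40198338, plus strand) encodes iron regulatory protein 1, which is an aconitase of the cytosol when it holds an iron-sulfur cluster and binds IREs when it does not. It was at 44.8, 39.6 and 41.8 CPM in wt/wt and at 50.1, 51.3 and 46.6 in fl/fl. Every fl/fl library was above every wt/wt library, and the spread within each genotype was small, with means of 42.1 ± 2.64 and 49.3 ± 2.45 (SD, n = 3). The difference on the log2 scale was 0.23 ± 0.142 (95% interval -0.085 to 0.55, adjusted p = 0.382 in edgeR), and it stayed between 0.169 and 0.292 under every alternative run.

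Slc25a37 (ENSMUSG00000034248.7, chr14:69241848-69285112, minus strand) encodes mitoferrin 1, which imports iron into mitochondria and is best known from red cell precursors. It was at 9.48, 8.91 and 9.04 CPM in wt/wt and at 8.03, 11.6 and 10.97 in fl/fl. The wt/wt values were close together, and the fl/fl values lay on both sides of them. The log2 fold change was 0.15 ± 0.226 (95% interval -0.35 to 0.66, adjusted p = 0.764 in edgeR), and it was 0.328 without replicate number 1 and 0.0398 without replicate number 2. The erythroid markers summed to 144 to 905 TPM in wt/wt and 1830 to 3930 in fl/fl, with none of the 12 at 0 in every library, and their part in the Slc25a37 level was not tested.

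Hmox1 (ENSMUSG00000005413.8, chr8:75093621-75100589, plus strand) encodes heme oxygenase 1, which releases iron from heme. It was the least abundant of the 10, with 22, 118 and 133 estimated counts in wt/wt and 167, 147 and 305 in fl/fl. In CPM it was at 2.86, 2.09 and 2.03 in wt/wt and at 2.84, 2.69 and 5.11 in fl/fl. The fl/fl library with replicate number 4 stood apart from the other 5, and the others overlapped. The log2 fold change was 0.59 ± 0.356 (95% interval -0.20 to 1.39, adjusted p = 0.372 in edgeR), and it was 0.17 without replicate number 4. The summed macrophage markers were also highest in that library, at 14.2 TPM, against 7.96 and 8.61 in the other 2 fl/fl libraries and 1.99 to 3.23 in wt/wt, where the macrophage marker Adgre1 was at 0 in 2 of the 3 libraries. The neutrophil sum (509, 491 and 832 TPM in fl/fl) and the B cell sum (15.3, 16.5 and 18.7) were highest in the same library, as was, within fl/fl, the T cell sum (417, 491 and 534). A match with 1 of 3 fl/fl libraries cannot tell these lists apart. The sort for CD11b- NK1.1+ cells should leave out macrophages and neutrophils, and the part of their RNA in the Hmox1 level was not tested.

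At the level of single transcripts, 52 transcripts of the 10 genes were quantified, 34 had enough counts to be tested, and 0 were called in edgeR, with the replicate block or without it. Of all 48098 transcripts tested, 0 (0.0%) were called by the rule and 3254 (6.77%) had an unadjusted p below 0.05, among them 1 of the 34, so this fit called nothing anywhere and its p-values carry little information on single transcripts. It was added after the gene-level values were seen, no other tool was run on transcripts, and the uncertainty of dividing reads among overlapping transcripts is not part of it. Most genes were read from 1 coding transcript. Fth1-201 held 100% of its gene's estimated counts, Aco1-201 held 99.1% to 100%, Slc11a2-201 91.8% to 97.4%, Tfrc-201, which carries the 4 hairpins in its 3' UTR, 85.8% to 95.6%, and Ftl1-201, with the hairpin in its 5' UTR, 81.3% to 86.6%. Ncoa4-201 held 78.6% to 88.0%. Hmox1-201 held 99.2% to 100% in 5 libraries and 89.0% in the fl/fl library of replicate number 2. Steap3 had 3 coding transcripts with at least 10% of its counts in either genotype. Steap3-202 held 67.5% to 76.6% in wt/wt and 59.5% to 70.9% in fl/fl, and Steap3-204 held 5.69% to 24.8% and 12.4% to 21.6%. The share of Steap3-205 was 0% in the shallow wt/wt library, 15.9% and 15.5% in the other 2 and 7.74% to 17.2% in fl/fl.

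The transcript shares of Slc25a37 are given as a description, since shares were not tested and none of its transcripts passed. Its coding transcript Slc25a37-201 held 75.3%, 58.0% and 67.6% of the gene's estimated counts in wt/wt and 29.8%, 45.0% and 45.5% in fl/fl, so that all fl/fl libraries lay below all wt/wt libraries. Slc25a37-203, which retains an intron, held 17.8%, 16.3% and 20.7% in wt/wt and 34.8%, 30.3% and 22.3% in fl/fl, without overlap. Slc25a37-204, annotated as a target of nonsense-mediated decay, held 6.10%, 25.6% and 11.7% in wt/wt and 35.4%, 24.7% and 32.2% in fl/fl, with overlap. These shares rest on few reads, from 73 estimated counts for the gene in the shallow wt/wt library to 655. The log2 fold changes of the 3 transcripts were -0.57 ± 0.436, 0.83 ± 0.423 and 1.48 ± 0.596 (adjusted p of 0.858, 0.803 and 0.753 in edgeR), and that of Slc25a37-201 was -0.131 without replicate number 1. Of all 24914 tested transcripts with at least 10% of their gene's counts in either genotype, single transcripts of a gene included, the fl/fl shares lay above all wt/wt shares for 5.88% and below them for 5.25%, beside 2 and 1 of the 14 such transcripts of the iron genes. Stretches of 339 to 382 bases of Slc25a37 are also part of the overlapping gene models Gm16867, Gm31748 and Gm37847, of which Gm16867 was listed with 3 to 56 estimated counts.

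The member transcript with an unadjusted p below 0.05 was Ftl1-203, a minor form annotated as noncoding and picked out after its values were seen. It held 0.289%, 2.52% and 1.19% of the Ftl1 counts in wt/wt and 4.28%, 5.97% and 6.15% in fl/fl. The groups did not overlap, as was the case in this direction for 6.13% of all 47170 transcripts with a share in every library (5.05% in the other direction), and the log2 fold change was 2.52 ± 0.46 (unadjusted p = 0.00402, adjusted p = 0.623 in edgeR). The coding Ftl1-201 stayed at 84.3% ± 1.49 of the counts in wt/wt and 84.7% ± 2.99 in fl/fl (SD, n = 3). Ireb2-201 was the only other transcript, besides those of Slc25a37, with at least 10% of its gene's counts and separated groups, with 87.6% to 90.4% in wt/wt and 91.0% to 93.1% in fl/fl.

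**Figure D3:**
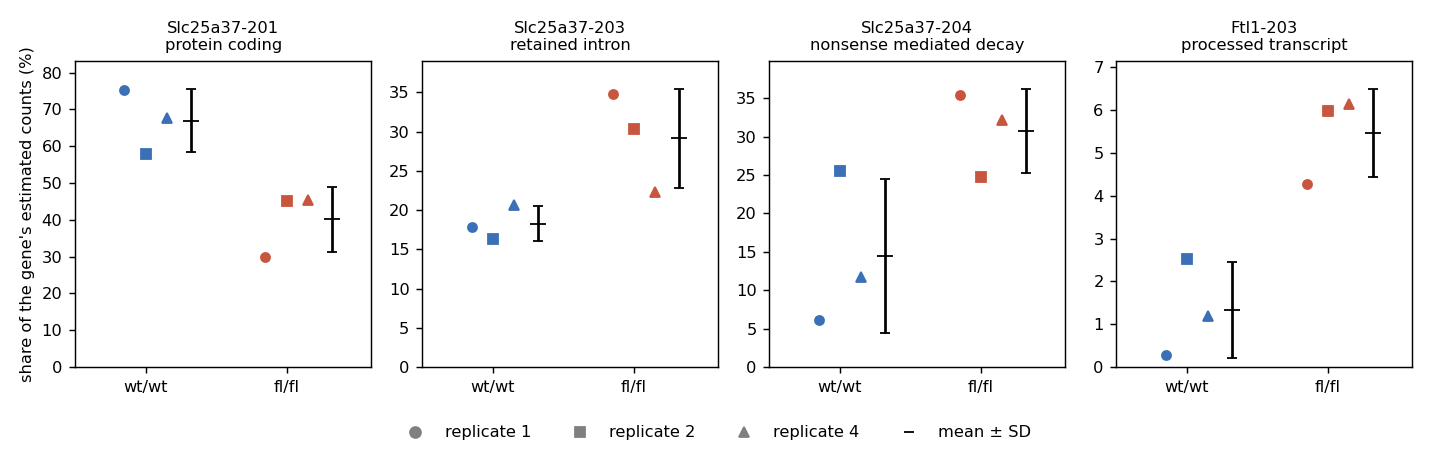
The vertical axes, each from 0, show the share of a gene's estimated counts assigned to 1 transcript, in percent, for 3 transcripts of Slc25a37 and 1 of Ftl1, with points for the 3 libraries of each genotype and black bars for the mean ± SD. The fl/fl points lie below the wt/wt points for Slc25a37-201 and above them for Slc25a37-203 and Ftl1-203, and overlap for Slc25a37-204.

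The promoters of the iron genes were searched for CACGTG, the E-box bound by MYC and its partner MAX, on both strands, which for this palindrome read alike. The RefSeq table of promoters (GRCm38.p6), with 250 bases before and 50 after each start site where given, held 14 windows for 7 of the 10 genes, and 0 of the 14 contained the letters, whereas 2349 of all 32851 windows did (7.15%). Slc11a2, Slc25a37 and Hmox1 had no entry. The search says only that these letters were not in those windows.

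The rest of the pathway was read from a list of 75 further genes of iron and heme handling, of which 68 could be tested. There, 1 gene was called lower (Sfxn1) and 1 higher (Trf), against 0.872% and 1.28% of all genes, while 36 log2 fold changes were below 0 and 32 above, with a median of -0.029. Before adjustment, 12 were lower and 11 higher at p below 0.05, against 22.5% of all genes in both directions together (1574 lower and 1913 higher of 15474). DESeq2 called 5 of the 68 higher (Trf, Tfr2, Slc40a1, Blvrb and Alas2), and limma-trend called only Sfxn1 and Trf. The CPM values of fl/fl lay above all of wt/wt for 13 of the 68 and below for 13, against 16.2% and 15.1% of all genes.

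Trf encodes transferrin, the plasma carrier of iron, and was the most abundant of the further uptake and reduction genes. It was at 21.6, 40.02 and 46.7 CPM in wt/wt and at 55.5, 81.1 and 92.4 in fl/fl. The groups did not overlap, and the log2 fold change was 1.11 ± 0.146, which is 2.16-fold, with an adjusted p of 0.00364 in edgeR. The call was lost without replicate number 1 (adjusted p = 0.0165 in edgeR), without the replicate block (0.0357), without any single library in that fit (0.0401 to 0.111), with library size only (0.0105) and with offsets from effective lengths (0.0152). In this role, 9 of 10 tested genes had a log2 fold change above 0, against 7962 of all 15474 genes. The 9 included Slc22a17, Steap2 and Cybrd1, at only 0.042, 0.171 and 0.206. They also included Tfr2, the second transferrin receptor, at 2.07 ± 0.40 (adjusted p = 0.0149 in edgeR), with 4 estimated counts in the shallow wt/wt library. The erythroid marker sum was higher in the same libraries, at 144 to 905 TPM in wt/wt and 1830 to 3930 in fl/fl, as was that of the basophil and mast cell markers, at 13.7 to 19.1 and 159 to 453, and the part of these cells' RNA in Trf and Tfr2 was not tested. The sort, for NK1.1+ cells without T cells and B cells, should leave such cells out. Within fl/fl both sums were lowest in the library of replicate number 4, where Trf was highest, while the macrophage (7.96, 8.61 and 14.2 TPM), B cell (15.3, 16.5 and 18.7) and T cell sums (417, 491 and 534) all had the order of Trf. The neutrophil sum (509, 491 and 832 TPM) was also highest in the library of replicate number 4. An order of 3 libraries cannot tell such lists apart.

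Sfxn1 was listed with the mitochondrial transporters, and its protein is known mainly as a carrier of serine and not of iron. It was at 182.0, 149.6 and 150.2 CPM in wt/wt and at 88.4, 93.5 and 75.7 in fl/fl. All fl/fl libraries were below all wt/wt libraries, and the log2 fold change was -0.90 ± 0.139, which is 0.535-fold, with an adjusted p of 0.00618 in edgeR. The call was lost in 10 of 19 alternatives: when replicate number 1, 2 or 4 was left out (adjusted p = 0.0283, 0.0113 and 0.0188 in edgeR), with library size only (0.0119), with offsets from effective lengths (0.0218) and in the fit without the block when any library but the wt/wt one of replicate number 1 was left out (0.0143 to 0.0224). The log2 fold change itself stayed between -1.01 and -0.808 under every alternative run. Of the other 6 genes of this role, edgeR, DESeq2 and limma-trend called 0, and 1 was lower before adjustment, at p below 0.05 (Cisd1).

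The genes of iron-sulfur cluster assembly, which build the cofactor that turns Aco1 protein into an aconitase, included 0 calls in edgeR and limma-trend, among 15 mitochondrial and 9 cytosolic genes, while DESeq2 called 2 of the mitochondrial genes lower. Of the 15 mitochondrial genes, 12 had a log2 fold change below 0, with a median of -0.257, and 4 were lower and 1 higher at an unadjusted p below 0.05. Among all 15474 genes, 7512 were below 0, and 1574 were lower and 1913 higher at that limit. Bola3, the most abundant of them per length, was at 180.6 ± 16.7 TPM in wt/wt and 158.3 ± 2.11 in fl/fl, with a log2 fold change of -0.15 ± 0.143 (adjusted p = 0.602 in edgeR). The median over the cytosolic genes was 0.030, and each direction held 1 gene at an unadjusted p below 0.05. Ciao2a, the most abundant cytosolic one by its mean over all 6 libraries, was at 160.7 ± 30.6 and 131.3 ± 3.63 TPM (log2 fold change -0.36 ± 0.154, adjusted p = 0.200 in edgeR). The iron chaperone Pcbp1, which hands iron to ferritin, was at 270.9 ± 1.89 TPM in wt/wt and 226.0 ± 9.75 in fl/fl, without overlap, with a log2 fold change of -0.38 ± 0.130 (adjusted p = 0.109 in edgeR).

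Among heme synthesis, heme transport and breakdown, export and the regulators, 0 genes were called in edgeR and limma-trend, and DESeq2 called Alas2, Blvrb and Slc40a1 higher. Of the 9 genes of heme synthesis, 1 was lower and 2 were higher at an unadjusted p below 0.05, and the most abundant, Alad, was at 130.5 ± 2.53 TPM in wt/wt and 129.8 ± 10.5 in fl/fl (log2 fold change -0.14 ± 0.139, adjusted p = 0.611 in edgeR). Hmox2, the constitutive heme oxygenase, was at 87.7 ± 20.9 and 80.1 ± 8.47 TPM (log2 fold change -0.042 ± 0.158, adjusted p = 0.922 in edgeR), well above the TPM of Hmox1 in both genotypes, and 2 of the 9 tested genes of its role were lower and 3 higher at an unadjusted p below 0.05. Keap1, which restrains the regulator NRF2, was at 42.0 ± 12.7 and 45.2 ± 6.55 TPM, and all 5 regulators had an unadjusted p above 0.05. Slc40a1 encodes ferroportin, the iron exporter, and was low, with 1, 55 and 96 estimated counts in wt/wt and 225, 201 and 408 in fl/fl. Its log2 fold change was 2.44 ± 0.434, just outside the threshold (adjusted p = 0.0106 in edgeR), while the log2 ratio of its mean TPM values was 1.5. Alas2, the erythroid enzyme of the first step of heme synthesis and named here after its values were seen, had the largest log2 fold change of the list, 2.76 ± 0.507 (adjusted p = 0.0118 in edgeR, 0.00851 without the replicate block), at 1.95, 0.851 and 3.15 CPM in wt/wt and 14.8, 16.2 and 7.60 in fl/fl. Its order among the fl/fl libraries was that of the erythroid marker sum (3720, 3930 and 1830 TPM) and also that of the basophil and mast cell sum (387, 453 and 159 TPM). Slc40a1, at 3.83, 3.68 and 6.83 CPM, was highest where both sums were lowest. Within fl/fl the neutrophil sum (509, 491 and 832 TPM) was also highest in that library. The same held for the macrophage (7.96, 8.61 and 14.2), B cell (15.3, 16.5 and 18.7) and T cell sums (417, 491 and 534). An order of 3 libraries cannot tell these lists apart. The part of other cells' RNA in Alas2 and Slc40a1 was not tested.

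**Figure D4:**
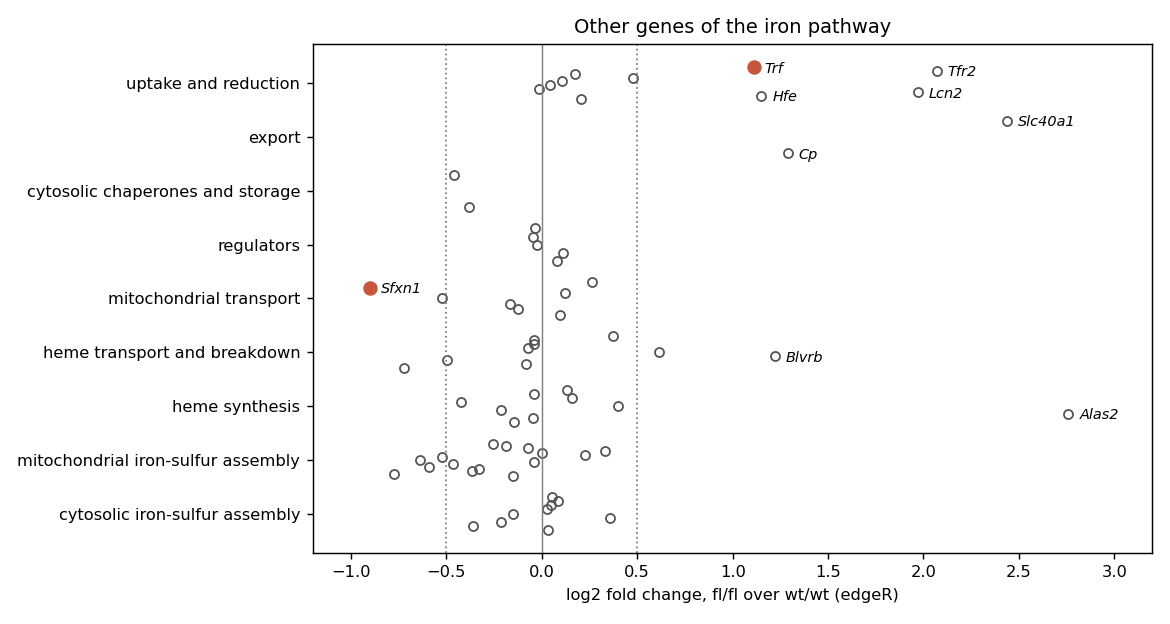
Each circle is 1 of the 68 tested genes of the further iron pathway list, placed by its log2 fold change, fl/fl over wt/wt, from edgeR, and grouped by role. Filled circles passed the threshold (Trf at 1.11 and Sfxn1 at -0.90), dotted lines mark 0.5 in either direction, and the open circles beyond a log2 fold change of 1, from Hfe to Alas2 at 2.76, did not pass.

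**Figure D5:**
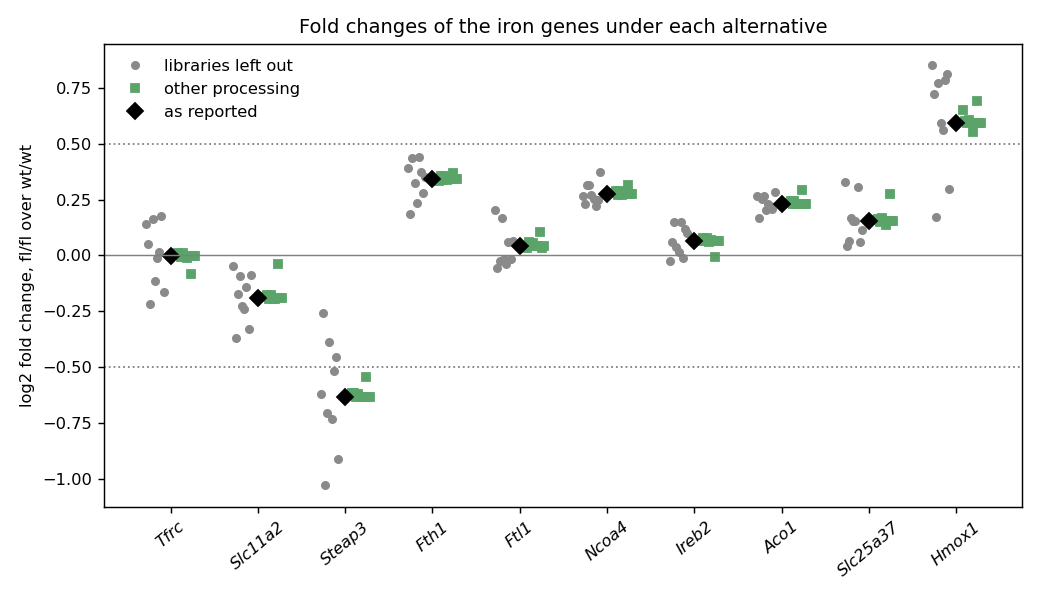
Log2 fold changes of the 10 iron genes, fl/fl over wt/wt, as reported (diamonds), with libraries left out (gray circles) and with other processing of all libraries (green squares). Fth1, Ncoa4, Aco1, Slc25a37 and Hmox1 lie above 0 and Slc11a2 and Steap3 below 0 at every point, whereas Tfrc, Ftl1 and Ireb2 lie on both sides.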

How the data were processed

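Per-library tables of the authors were analyzed, 3 for each genotype. Each lists, for every mouse transcript, an estimated count that is not normalized, a TPM value and an effective length, as deposited. The columns are those of kallisto, although Salmon, run through nf-core/RNAseq, and a human reference transcriptome are what the study's methods give. Libraries were made with the SMART-Seq v4 kit, which does not mark strand, and read single end for 100 bases.

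Transcripts were matched to GENCODE M21 (100239 of 100583), and estimated counts were summed by symbol and rounded. Genes kept by filterByExpr were normalized by TMM and tested with edgeR 4.0.16 (R 4.3.3) by the quasi-likelihood test, blocked by replicate number as in the study's paired analysis, although the data do not show such pairing. P-values were adjusted by Benjamini-Hochberg over all 15474 genes. SE is the log2 fold change divided by the root of F. Level comparisons between genes used TPM. The fits were also run on simulated counts with known changes, whose outcome is not given here. Replicates differed by more than sampling noise in every pair (chi-square per degree of freedom of 39.4 or more).

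The members and lists were chosen with earlier results of these data known. The text names all members, their transcripts with at least 10% of the gene's counts, and of each further role every called gene and the most abundant by mean TPM over the 6 libraries. Alternatives were DESeq2 1.42.0, limma-trend 3.58.1, other scalings, no count filter, offsets from effective lengths, pseudogenes summed, no block, each replicate or library left out, a looser threshold, and the transcript-level fit, which was chosen after seeing the data.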

Additional observations from a re-analysis of the deposited data

How the results depend on the processing

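No iron gene passed the threshold under any alternative run, and Slc11a2, Steap3, Fth1, Ncoa4, Aco1, Slc25a37 and Hmox1 kept their sign under all 19. Tfrc turned to 0.00813 with library size only, 0.00839 without the filter on low counts and 0.0111 without the replicate block, and ranged from -0.216 to 0.177 with libraries left out. Ireb2 turned to -0.00916 with offsets from effective lengths and ranged from -0.0249 to 0.151 with libraries left out, and Ftl1 from -0.0571 to 0.203. The heavy to light ferritin log2 ratio differed by 0.297 on estimated counts, by 0.273 with pseudogenes summed, and by 0.169 to 0.409 with a replicate left out.

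Counts of calls moved far more, and the cause was not tested. Lower and higher genes numbered 548 and 645 in DESeq2, 523 and 689 with the limit on adjusted p raised to 0.05 and none on the fold, 378 and 524 without the filter, 25 and 49 with library size only, and 6 and 24 with offsets. Leaving libraries out gave 6 to 130 lower and 19 to 162 higher genes. Of the further iron pathway genes, lower and higher calls were 3 and 5 in DESeq2, 2 and 5 without the filter and at the looser threshold, and 0 and 0 with library size only or offsets. DESeq2 size factors gave 3 higher ones, and leaving libraries out 0 to 1 lower and 0 to 3 higher.

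Same-numbered libraries deviated from their genotype means with correlations of -0.0121, -0.0198 and 0.0505 over genes, all under 0.1, so these data do not show that the numbers pair mice, and the block was kept only because the study's analysis was paired. Without the replicate block 184 genes were lower and 203 higher. Of the iron genes, the pathway list and Myc, Trf lost its call without it and Alas2 gained one. With 1 library at 8101219 counts and 3 per genotype, the intervals of the iron genes span at least 0.5 on the log2 scale.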
